A study of Mus musculus with 8 samples.

Results

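The 10 genes described here encode the machinery by which cone photoreceptors turn light into an electrical signal: the cone opsins Opn1sw and Opn1mw, the cone transducin subunits Gnat2, Gnb3 and Gngt2, the cone phosphodiesterase subunits Pde6c and Pde6h, the cone channel subunits Cnga3 and Cngb3, and the cone arrestin Arr3. They were taken by gene name from tables of 54532 genes and all 8 libraries, and each of the 10 passed the filter on low counts, as did 17004 genes in all. RNA sequencing was done on mouse retina, with 4 libraries labelled sIVs, for small intracellular vesicles, and 4 control libraries labelled PBS, numbered 1, 3, 4 and 5 in each group. The labels gave no strain, age, dose, route, time after treatment or injury, and did not say whether the libraries of a group came from separate animals, so p-values measure only the spread between these libraries, which may be technical. The comparison asked whether cone transcripts differed in vesicle-treated retinas, in a series whose title concerns protection of retinal neurons.

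In a cone, light isomerizes the chromophore of an opsin, the opsin activates the G protein transducin, and transducin relieves the inhibition of a phosphodiesterase that breaks down cyclic GMP. The fall in cyclic GMP closes cation channels of the outer segment membrane, and arrestin binding then ends the activity of the phosphorylated opsin. Rods use a parallel set of proteins encoded by other genes. Mouse cones are few beside rods, and many of them hold both opsins, with more of the short-wave pigment toward the ventral retina. In bulk retina, fewer cones and less RNA per cone cannot be told apart.

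The libraries held 13803958 to 16622259 counts, and the counts of the 10 genes ran between 161 for Cnga3 in PBS replicate 1 and 14303 for Gnb3 in sIVs replicate 4. The retina label was borne out by rod markers, which summed to 15182 to 22629 CPM (counts scaled to the normalized size of each library) in sIVs and 12858 to 21989 CPM in PBS libraries. In the sIVs and PBS groups alike, replicate 1 had the highest rod sum. The library labelled sIVs replicate 4 stood apart in part of a list of 8 markers of the retinal pigment epithelium. The 8 summed to 385 CPM there and to between 7.26 and 51.0 CPM in the other 7 libraries. Rgr (153 CPM), Ttr (150 CPM), Rpe65 (60.2 CPM) and Lrat (14.1 CPM) were highest there. Tyrp1 (5.57 CPM) and Pmel (1.90 CPM) were not: Tyrp1 reached 6.46 CPM in sIVs replicate 5 and Pmel 4.21 CPM in PBS replicate 5. Best1 and Mlana, under the count filter, were not highest there either. Replicate 4 of sIVs also differed by coding length. When the 14220 tested genes with an annotated coding sequence were split into 5 groups of rising length, the median log2 CPM in sIVs replicate 4, minus the mean of the other 7 libraries, was 0.67 for the shortest group (111 to 777 bases) and 0.33, 0.08, -0.16 and -0.58 for the next 4. In PBS replicate 1 the same medians were -0.20, -0.08, -0.02, 0.06 and 0.15, and microglial markers summed to 36.6 CPM there against 107 to 203 CPM elsewhere.

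No cone phototransduction gene differed between sIVs and PBS retinas in edgeR's quasi-likelihood test. Of the 10 genes, 0 had an adjusted p under 0.05, beside 0% of all 17004 tested genes, and 0 had an unadjusted p under 0.05, beside 1.5% of all tested genes. DESeq2 likewise called 0 of the 10, with 0 at an unadjusted p under 0.05. Over all tested genes, edgeR gave 255 and DESeq2 322 at an unadjusted p under 0.05. For none of the 10 were the sIVs libraries all above or all below the PBS libraries, whereas the groups did not overlap for 2.01% of tested genes. The log2 fold change was positive for 7 and negative for 3 of the 10 genes, with a median of 0.17, against 51.3% positive and a median of 0.01 over all tested genes. Without sIVs replicate 4 it was positive for 8, the median was 0.06, and no gene exceeded 0.17 in size.

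**Figure D1:**
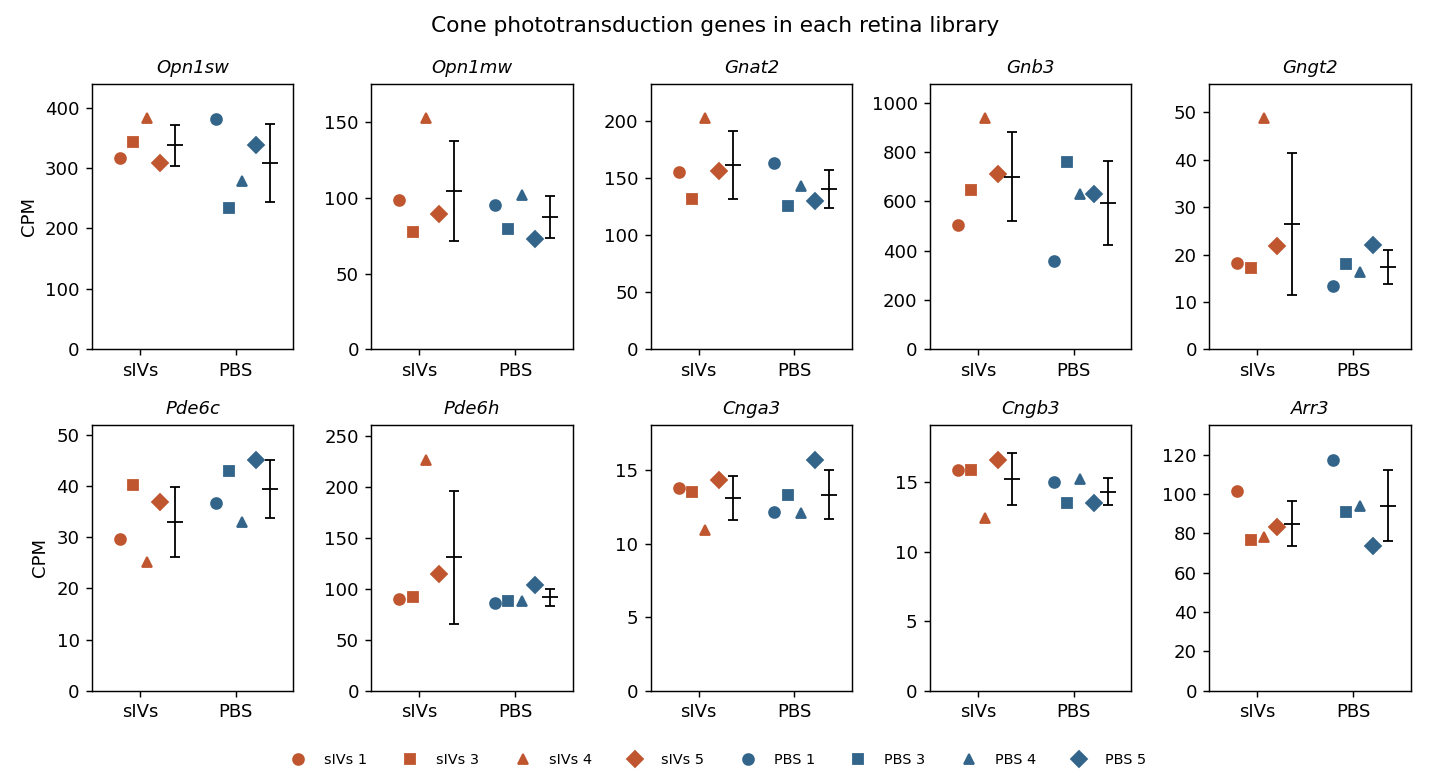
Level of each cone phototransduction gene in CPM (vertical axes, each starting at 0) in the 4 sIVs and 4 PBS libraries, with 1 symbol per library and the mean ± SD beside each group. The groups overlap for each gene; sIVs replicate 4 is the highest of 8 libraries for 6 genes and the lowest for 3.

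**Figure D2:**
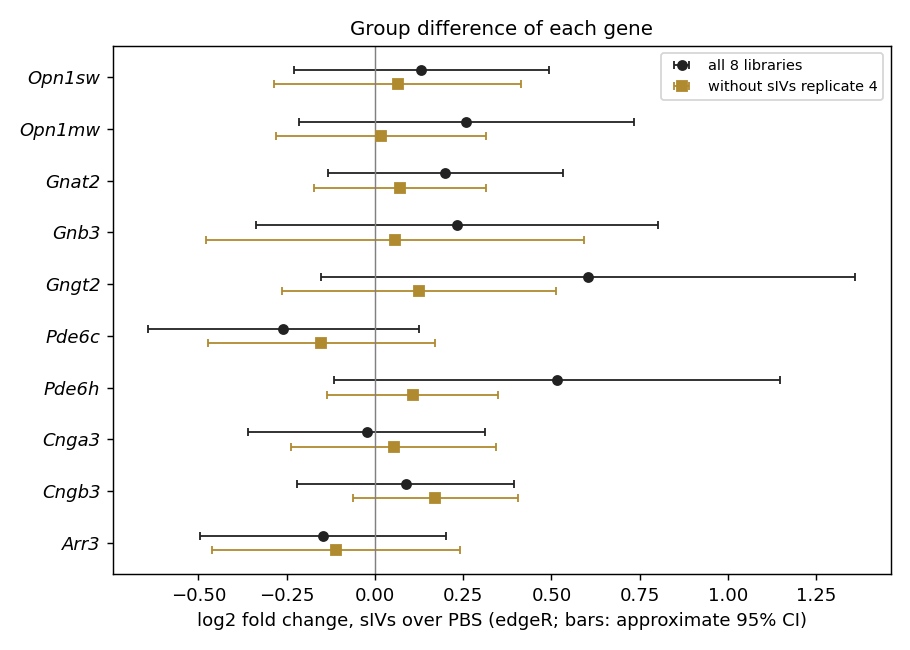
Log2 fold change of each gene, sIVs over PBS, with an approximate 95% confidence interval, for all 8 libraries (circles) and without sIVs replicate 4 (squares). Each interval includes 0, and the differences of Gngt2 and Pde6h, 0.60 and 0.51 over all libraries, are 0.13 and 0.11 without that library.

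The upstream sequences of the opsins, Pde6h and Arr3 are shown. They were chosen because these genes start the cascade, carry one of the largest library effects, and end the signal. The printed bases lie before a RefSeq start (GRCm38.p6). Bases next to that start in an exon annotated in GENCODE M21 were left out, so the printed bases overlap no such exon. This cut the Opn1mw window to 198 of 200 bases, and the other printed windows were not cut. RefSeq promoter entries were matched for 6 of the 10 genes, Opn1sw, Opn1mw, Gnat2, Pde6h, Cnga3 and Arr3. Windows are Opn1sw chr6:29380514-29380713 on the minus strand, Opn1mw chrX:74127266-74127463, Pde6h chr6:136954323-136954522 and Arr3 chrX:100605297-100605496, all 3 on the plus strand. The RefSeq starts of Opn1sw and Pde6h lie inside the longer gene spans of the deposited tables given below, so these windows are not upstream of those spans. All windows read 5′ to 3′ toward the RefSeq start, and capitals mark TAATCC or TAATCT, core sequences bound by the photoreceptor homeodomain factor CRX, and AGGTCA, a half-site of nuclear receptors, on either strand.
Opn1sw: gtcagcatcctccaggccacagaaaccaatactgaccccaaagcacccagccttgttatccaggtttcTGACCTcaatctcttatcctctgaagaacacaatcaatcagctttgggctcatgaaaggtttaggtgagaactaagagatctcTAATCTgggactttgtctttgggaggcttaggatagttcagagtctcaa
Opn1mw: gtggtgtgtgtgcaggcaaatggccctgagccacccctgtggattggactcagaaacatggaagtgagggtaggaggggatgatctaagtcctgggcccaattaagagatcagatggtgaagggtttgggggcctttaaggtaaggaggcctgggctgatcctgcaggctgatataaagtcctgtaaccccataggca
Pde6h: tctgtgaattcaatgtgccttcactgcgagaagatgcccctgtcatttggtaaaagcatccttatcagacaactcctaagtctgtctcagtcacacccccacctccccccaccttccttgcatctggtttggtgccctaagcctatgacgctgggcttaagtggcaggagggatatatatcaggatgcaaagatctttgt
Arr3: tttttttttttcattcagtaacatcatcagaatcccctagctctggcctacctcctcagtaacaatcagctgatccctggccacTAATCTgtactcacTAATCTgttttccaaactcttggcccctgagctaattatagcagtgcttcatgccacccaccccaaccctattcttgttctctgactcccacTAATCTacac

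Over the 250 bases before the start, TAATCC or TAATCT was found on either strand in 3 of the 6 genes, and in 12.8% of 32851 mouse promoter windows of that length. Arr3 held TAATCT at positions -116, -102 and -10 from the start, Opn1sw at -49, and Gnat2 held TAATCC at -19 on the minus strand. All 200 bases before the RefSeq start of Gnat2 lay in annotated Gnat2 exons. Its match is therefore inside the gene span of the deposited tables and not upstream of it. AGGTCA was found in Opn1sw alone of the 6, at -202, just outside the printed bases, and, on the minus strand, at -132, beside 14% of the windows. A match is a stretch of letters and not a shown binding site, and the motifs do not overlap one another.

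The opsins are the light receptors. Opn1sw, the short-wave opsin on chromosome 6 (29376671 to 29388468, minus strand, mm10), stood at 316, 344, 382 and 308 CPM in sIVs replicates 1, 3, 4 and 5, and at 380, 234, 279 and 338 CPM in PBS replicates 1, 3, 4 and 5. The lowest sIVs library was above PBS replicates 3 and 4 and below the other two. The means were 337 ± 33.6 CPM in sIVs and 308 ± 64.5 CPM in PBS retinas (SD, n = 4 each), a log2 fold change of 0.13 ± 0.16 (SE; edgeR adjusted p = 0.82), which was 0.02 without PBS replicate 3 and 0.25 without PBS replicate 1.

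Opn1mw, the medium-wave opsin on chromosome X (74127464 to 74150760, plus strand), stood at 98.2, 77.7, 152 and 89.7 CPM in sIVs replicates 1, 3, 4 and 5 and at 95.5, 79.6, 102 and 72.6 CPM in PBS replicates 1, 3, 4 and 5. Replicate 4 was the only sIVs library outside the PBS range. The difference on the log2 scale was 0.26 ± 0.21 (SE; edgeR adjusted p = 0.81) and 0.02 without sIVs replicate 4. Opn1sw shares part of its span with Calu, on the opposite strand and with a mean of 2215 counts per library, and whether counting used strand is not given in the sources used here.

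The balance of both opsins was read within each library, where scaling cancels. Opn1mw had 0.311, 0.226, 0.399 and 0.291 counts per Opn1sw count in sIVs replicates 1, 3, 4 and 5, and 0.251, 0.340, 0.364 and 0.215 in PBS replicates 1, 3, 4 and 5. The groups overlapped almost fully. The mean log2 ratio was -1.73 ± 0.34 in sIVs and -1.81 ± 0.36 in PBS libraries (SD, n = 4 each), a difference of 0.07 (two-sided exact permutation p = 0.8 over 70 arrangements, of which the smallest possible p is 0.0286). Its sign was not stable, since the difference was -0.06 without sIVs replicate 4 and -0.07 without PBS replicate 5.

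Transducin couples the opsin to the enzyme. Gnat2, the cone alpha subunit on chromosome 3 (108092789 to 108101432), stood at 155, 131, 202 and 156 CPM in sIVs replicates 1, 3, 4 and 5 and at 163, 125, 143 and 130 CPM in PBS replicates 1, 3, 4 and 5. Apart from sIVs replicate 4, each sIVs library lay inside the PBS range. On the log2 scale the difference was 0.20 ± 0.15 (SE; edgeR adjusted p = 0.81), and 0.07 without sIVs replicate 4.

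Gnb3 encodes the cone beta subunit and is also used by ON bipolar cells, the neurons that take up cone and rod signals of the light-on pathway. It lies on chromosome 6 (124834240 to 124840275) and stood at 504, 644, 937 and 711 CPM in sIVs replicates 1, 3, 4 and 5, and at 356, 761, 630.5 and 631 CPM in PBS replicates 1, 3, 4 and 5. The lowest library of each group was its replicate 1, and the spread within each group was wide, at 699 ± 180.5 CPM in sIVs and 595 ± 170.3 CPM in PBS retinas (SD, n = 4 each). Gnb3 had a log2 fold change of 0.23 ± 0.25 (SE; edgeR adjusted p = 0.81), which was 0.06 without sIVs replicate 4, 0.05 without PBS replicate 1 and -0.12 without both. Other ON bipolar transcripts did not share the low value of PBS replicate 1: Grm6, the glutamate receptor of these cells, stood at 222 CPM there and at 191 to 224 CPM in the other PBS libraries, and Gnao1, their G protein alpha subunit, at 488 CPM and 477 to 502 CPM.

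Gngt2, the cone gamma subunit on chromosome 11 (95837216 to 95845734), had the largest log2 fold change of the 10 genes. It stood at 18.3, 17.1, 48.7 and 21.8 CPM in sIVs replicates 1, 3, 4 and 5 and at 13.4, 18.0, 16.3 and 22.0 CPM in PBS replicates 1, 3, 4 and 5. A single library, sIVs replicate 4, was above the PBS range, and the other 3 sIVs libraries were inside it. The log2 fold change was 0.60 ± 0.34 (SE; edgeR adjusted p = 0.81), with a 95% interval of 0.899-fold to 2.57-fold. Without sIVs replicate 4 it was 0.13 ± 0.17 (SE).

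The phosphodiesterase subunits lay on opposite sides of the other libraries in sIVs replicate 4. Pde6c, the cone catalytic subunit on chromosome 19 (38132781 to 38183958), stood at 29.7, 40.2, 25.2 and 36.9 CPM in sIVs replicates 1, 3, 4 and 5, and at 36.7, 42.9, 33.0 and 45.2 CPM in PBS replicates 1, 3, 4 and 5. The lowest values were in sIVs replicates 4 and 1, and the other sIVs libraries lay inside the PBS range. Its log2 fold change of -0.26 ± 0.17 (SE; edgeR adjusted p = 0.81) was the most negative of the 10, and it was -0.15 without sIVs replicate 4.

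Pde6h, the small inhibitory subunit on chromosome 6 (136923832 to 136968865), stood at 89.7, 91.9, 227 and 114 CPM in sIVs replicates 1, 3, 4 and 5 and at 86.1, 88.3, 88.2 and 103 CPM in PBS replicates 1, 3, 4 and 5. Each sIVs library exceeded PBS replicates 1, 3 and 4, and sIVs replicates 4 and 5 were also above PBS replicate 5. Pde6h had a log2 fold change of 0.51 ± 0.28 (SE; edgeR adjusted p = 0.81; 95% interval 0.922-fold to 2.21-fold). Without sIVs replicate 4 it was 0.11 ± 0.11 (SE). Per count of Pde6c there were 3.02, 2.29, 8.99 and 3.10 counts of Pde6h in sIVs replicates 1, 3, 4 and 5, and 2.34, 2.06, 2.67 and 2.29 in PBS replicates 1, 3, 4 and 5.

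The cyclic nucleotide-gated channel genes were the steadiest of the set. Cnga3, the principal cone subunit on chromosome 1 (37214434 to 37263384), stood at 13.8, 13.5, 10.9 and 14.3 CPM in sIVs replicates 1, 3, 4 and 5 and at 12.2, 13.3, 12.1 and 15.7 CPM in PBS replicates 1, 3, 4 and 5. Its log2 fold change was -0.02 ± 0.15 (SE; edgeR adjusted p = 0.96). The 95% interval, 0.780-fold to 1.24-fold, bounds any difference more tightly than for Gngt2 or Pde6h.

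Cngb3, the modulatory subunit on chromosome 4 (19280850 to 19510623), stood at 15.9, 15.9, 12.4 and 16.6 CPM in sIVs replicates 1, 3, 4 and 5, and at 15.0, 13.5, 15.3 and 13.5 CPM in PBS replicates 1, 3, 4 and 5. Apart from sIVs replicate 4, which was lowest of all 8, each sIVs library was above each PBS library. The share of all tested genes that separate in this way without sIVs replicate 4 was not computed. The log2 fold change was 0.09 ± 0.14 (SE; edgeR adjusted p = 0.85), and 0.17 ± 0.10 (SE; edgeR adjusted p = 1.00) without sIVs replicate 4. The SDs of log2 CPM over the 8 libraries were 0.16 for Cnga3 and 0.14 for Cngb3, beside a median of 0.30 over all tested genes and 0.56 for Gngt2.

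Arr3, the cone arrestin on chromosome X (100605497 to 100618493), shuts off the activated opsin. It stood at 101, 76.6, 77.9 and 83.1 CPM in sIVs replicates 1, 3, 4 and 5 and at 117, 90.8, 93.7 and 73.7 CPM in PBS replicates 1, 3, 4 and 5. Replicate 1 was the highest library of each group, as it was for the summed rod markers. Its log2 fold change was -0.15 ± 0.15 (SE; edgeR adjusted p = 0.81), and -0.03 without PBS replicate 1.

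**Figure D3:**
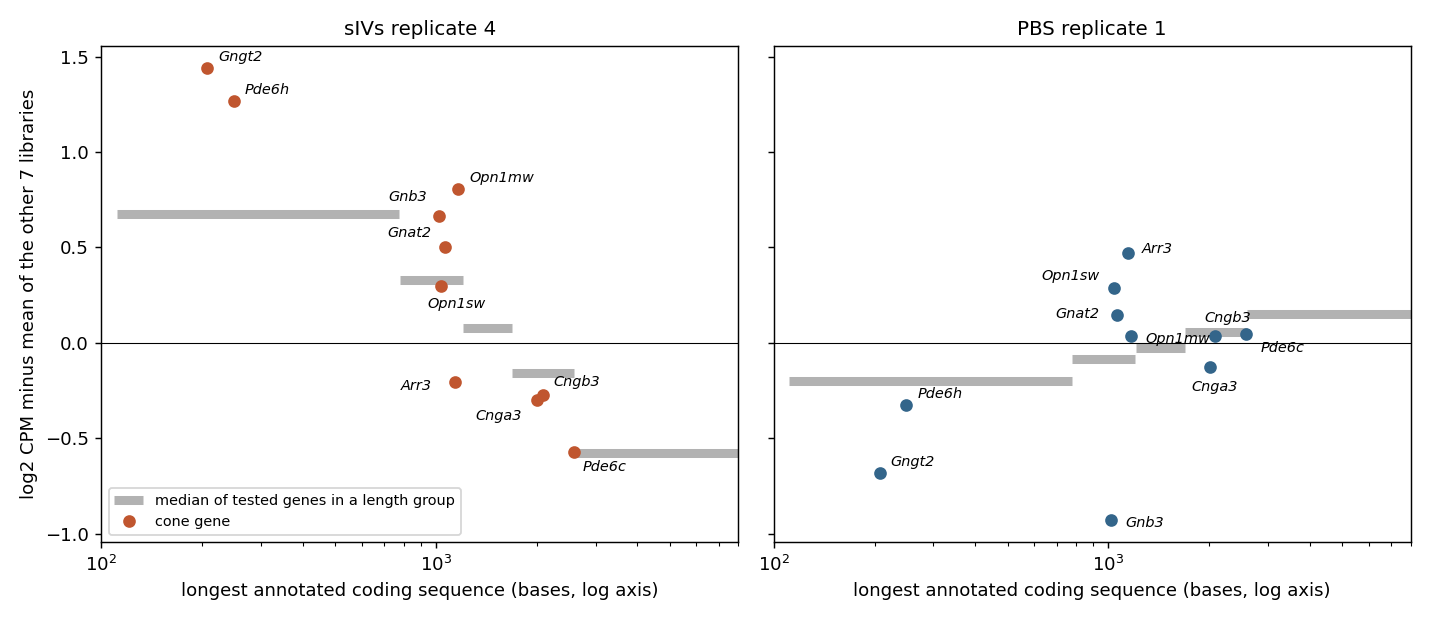
Deviation of each cone gene in sIVs replicate 4 (left) and PBS replicate 1 (right), as log2 CPM minus the mean of the other 7 libraries, against the longest annotated coding sequence on a log axis; grey bars are medians of all tested genes in 5 length groups, the longest of which runs off the axis. In sIVs replicate 4, Gngt2 and Pde6h sit highest at 1.44 and 1.27 and Pde6c lowest at -0.57, and in PBS replicate 1, Gnb3 sits lowest at -0.93.

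In sIVs replicate 4 the cone genes ranked largely by coding length. Gngt2 (207 bases of coding sequence) and Pde6h (249 bases) deviated by 1.44 and 1.27 on the log2 scale from the mean of the other 7 libraries. Opn1mw, Gnb3, Gnat2 and Opn1sw, with 1020 to 1167 bases, deviated by 0.80, 0.67, 0.50 and 0.30. Pde6c (2583 bases), Cnga3 (2007 bases) and Cngb3 (2082 bases) deviated by -0.57, -0.30 and -0.27. Arr3, with 1143 bases, stood apart from genes of its length at -0.21. The order did not hold for whole transcripts: the annotated transcript of Pde6h, at 5940 bases, was the longest of the cone genes. Rgr, Ttr, Rpe65 and Lrat, but not the other pigment epithelium markers given above, were also highest in sIVs replicate 4. The part of coding length or of pigment epithelium RNA in the cone gene values was not tested. With an offset that removes the trend on coding length from each library, a setting chosen after seeing the data, the log2 fold changes of Gngt2 and Pde6h were 0.18 and 0.13 (edgeR adjusted p = 0.90 for each).

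The genes were also ordered by level per length in FPKM (fragments scaled to the listed gene length and the library size). The medians over the 8 libraries were 238 FPKM for Gnb3, 126 for Opn1sw, 58.1 for Opn1mw, 48.7 for Gnat2, 36.1 for Arr3, 12.1 for Pde6c, 11.3 for Pde6h, 9.47 for Gngt2, 3.33 for Cnga3 and 3.16 for Cngb3. Gnb3, which ON bipolar cells also use, was above Opn1sw in 7 of 8 libraries. Opn1sw, Opn1mw, Gnat2 and Arr3 each stood above the next in 8 of 8. Pde6c and Pde6h could not be ordered, with Pde6c higher in 4 of 8, and Cnga3 was above Cngb3 in 6 of 8. The order depends on the listed lengths: that of Pde6h was 7846 bases against a coding sequence of 249, so the level of Pde6h per length would be higher for a shorter transcript.

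**Figure D4:**
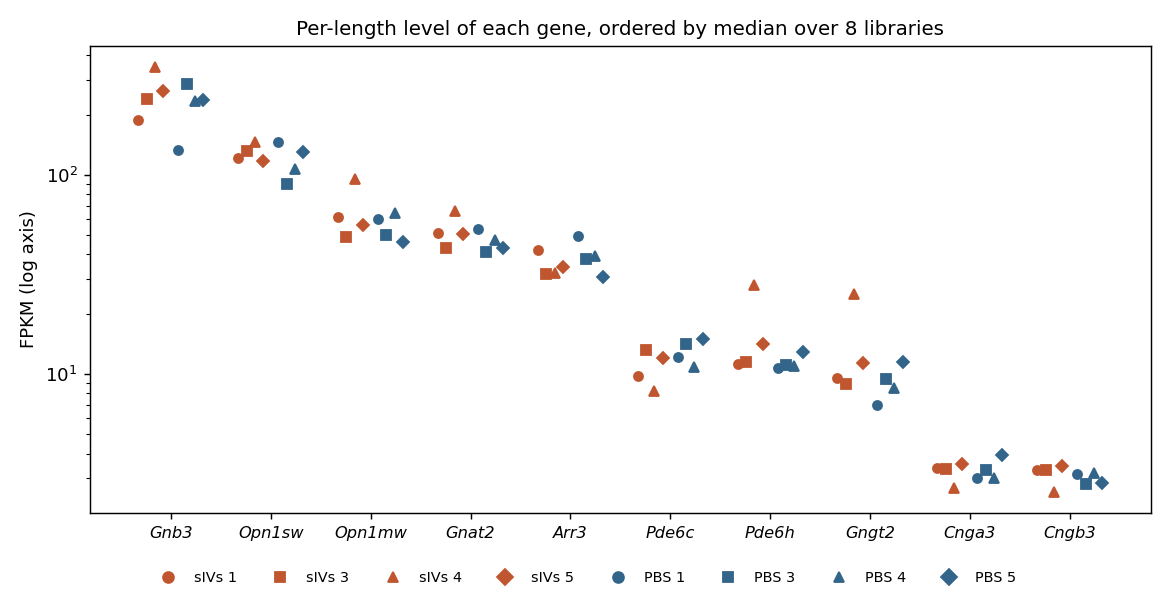
Level of each cone gene in FPKM on a log axis, with 1 symbol per library, ordered by the median over 8 libraries. Gnb3 and Opn1sw lie highest, at medians of 238 and 126 FPKM, and the channel genes Cnga3 and Cngb3 lowest, at 3.33 and 3.16 FPKM.

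The subunit ratios per length gave a similar picture. The ratio of Cnga3 to Cngb3 was 1.03 ± 0.0152 in sIVs and 1.12 ± 0.205 in PBS libraries (SD, n = 4 each), the narrowest of the ratios examined in sIVs libraries. The ratio of Gnb3 to Gnat2 was 4.94 ± 0.849 in sIVs and 4.99 ± 1.84 in PBS libraries, and that of Gngt2 to Gnat2 was 0.251 ± 0.0905 in sIVs and 0.203 ± 0.0597 in PBS libraries (SD, n = 4 each). The ratio of Pde6h to Pde6c was 1.65 ± 1.18 in sIVs and 0.886 ± 0.0961 in PBS libraries (SD, n = 4 each). In each of these 4 ratios the libraries of both groups overlapped.

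The cone genes downstream of the opsins were each set against a rod counterpart within the same library, since rods use Gnat1, Gnb1, Gngt1, Pde6b, Pde6g, Cnga1, Cngb1 and Sag at the same steps. Per length, Gnat2 reached 1.91% ± 0.434 of Gnat1 in sIVs and 1.89% ± 0.336 in PBS libraries (SD, n = 4 each). Gnb3 came nearest to its counterpart Gnb1, with mean log2 ratios of -1.82 ± 0.60 in sIVs and -1.94 ± 0.84 in PBS libraries (SD, n = 4 each). Gnb3 is also used by ON bipolar cells, so its ratio does not set cones alone against rods. Of 8 such pairs the mean log2 ratio was higher in sIVs for 3 and lower for 5, and 0 pairs had groups without overlap. The most negative difference was that of Arr3 to Sag, with mean log2 ratios of -3.96 ± 0.38 in sIVs and -3.60 ± 0.21 in PBS libraries (SD, n = 4 each). Only sIVs replicate 4, at -4.52, lay outside the PBS range of -3.88 to -3.38. The other sIVs libraries ran from -3.85 to -3.68.

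Rod subunits of short coding length shared the high level of sIVs replicate 4. Gngt1, the rod gamma subunit, stood at 512, 324, 825 and 404 CPM in sIVs replicates 1, 3, 4 and 5, and at 402, 290.4, 389 and 325 CPM in PBS replicates 1, 3, 4 and 5. Pde6g, the rod inhibitory subunit, stood at 1881, 1227, 3165 and 1400 CPM in sIVs replicates 1, 3, 4 and 5 and at 1755, 995.5, 1414 and 1074 CPM in PBS replicates 1, 3, 4 and 5. The log2 ratio of Gngt2 to Gngt1 in sIVs replicate 4 was -3.18 and that of Pde6h to Pde6g was -5.56, both inside the range of the other 7 libraries. Replicate 1 of both groups also stood low: sIVs replicate 1 and PBS replicate 1 had the lowest cone to rod ratios of all 8 libraries in 6 of the 8 pairs.

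**Figure D5:**
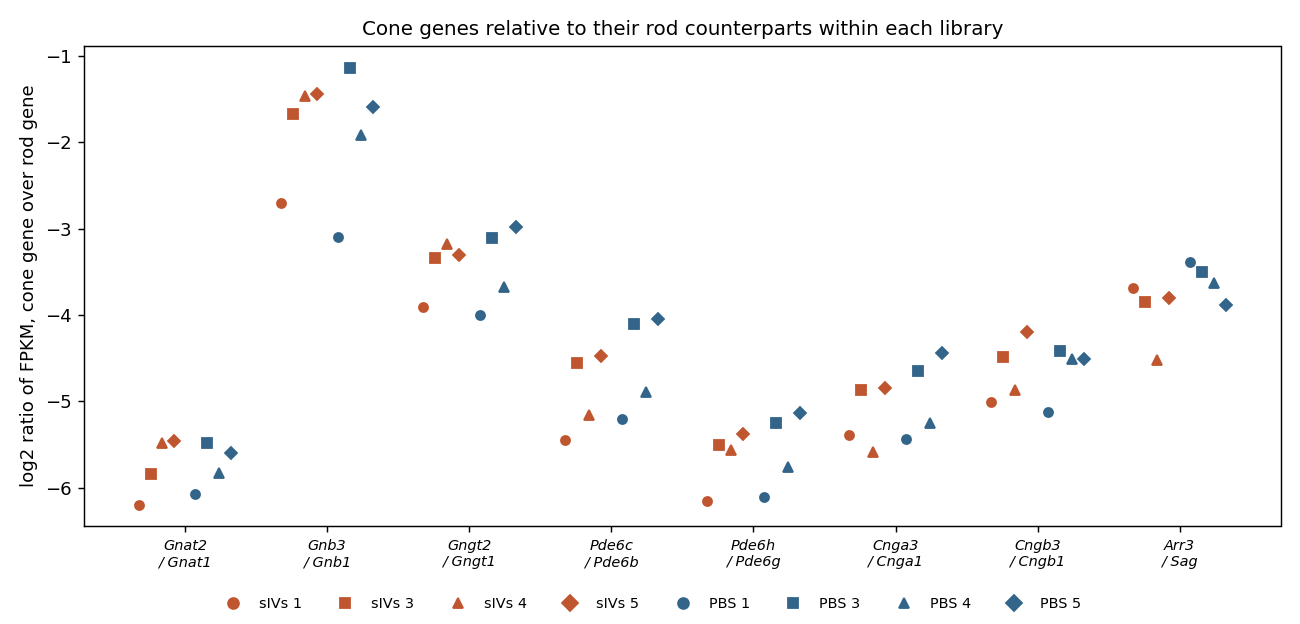
Log2 ratio of FPKM of 8 cone genes over its rod counterpart within each library, with sIVs libraries left of PBS libraries in each pair. Replicate 1 of both groups (circles) lies lowest in 6 of 8 pairs, and the groups overlap in each pair.

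Other photoreceptor genes gave no call either. Of 9 rod counterparts, 0 passed in either direction; 8 leaned positive, the median log2 fold change was 0.17, and Gngt1 and Pde6g had the smallest p, at 0.55 ± 0.27 and 0.55 ± 0.31 (SE). Of 18 genes of the cascade that rods and cones share in whole or in part, 0 passed, 8 were positive, and the median was -0.12. That median was 0.03 without sIVs replicate 4, 0.12 without PBS replicate 1, 0.21 without both and -0.34 without sIVs replicate 1, so it gave no stable direction. Their smallest p belonged to Slc24a2, the cone sodium-calcium-potassium exchanger, at -0.50 ± 0.26, and Pde6d, which binds prenylated phosphodiesterase, at 0.45 ± 0.23 (SE). Slc24a2 stood at 85.6, 85.8, 34.2 and 65.6 CPM in sIVs replicates 1, 3, 4 and 5 and at 92.1, 103, 83.5 and 105 CPM in PBS replicates 1, 3, 4 and 5, lowest again in sIVs replicate 4.

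Of 7 other genes listed for cones, 0 passed, 5 were positive, and the median was 0.14. Rxrg, a retinoid receptor of cones that partners the thyroid hormone receptor, stood at 7.88, 9.45, 16.5 and 11.6 CPM in sIVs replicates 1, 3, 4 and 5 and at 6.80, 9.26, 9.68 and 7.52 CPM in PBS replicates 1, 3, 4 and 5, highest in sIVs replicate 4 (log2 fold change 0.45 ± 0.24 SE). Otop3, a proton channel gene, had a log2 fold change of 0.25 ± 0.19 (SE). Of 11 photoreceptor transcription factor genes, which include Rxrg and the thyroid hormone receptor gene Thrb, 0 passed, 6 were positive, and the median was 0.10, with Otx2, a homeodomain factor, at 0.12 ± 0.10 (SE).

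Markers of the neighbouring cells were read in the same fit, and 0 of them passed. Median log2 fold changes were 0.19 over 6 rod genes, 0.02 over 10 bipolar, 0.02 over 7 ganglion cell, -0.12 over 7 amacrine and horizontal cell, -0.09 over 6 Müller glia, 0.54 over 7 microglia and 1.82 over 6 pigment epithelium genes. Of 6 lens genes, 1 passed the count filter, Bfsp2 at 0.51, and the lens sum was at most 3.73 CPM in any library. The genes of smallest p in these lists had log2 fold changes of 0.25 and 0.20 for Sag and Cnga1. The values were 0.43 and 0.15 for Pcp2 and Cabp5, -0.17 and 0.43 for Pou4f1 and Sncg, and -0.26 and -0.39 for Tfap2b and Slc6a9. For Apoe and Rlbp1 they were 0.72 and 0.25, and for P2ry12 and Ctss 0.57 and 0.73. For Rgr and Rpe65 they were 2.48 ± 1.02 and 2.90 ± 1.32 (SE), and rest largely on sIVs replicate 4. Leaving that library aside, Rpe65 ran from 0.284 to 4.13 CPM in sIVs and from 0.227 to 3.97 CPM in PBS libraries. Rgr likewise ran from 3.98 to 20.4 CPM and from 2.72 to 14.2 CPM. The microglial sum was lowest in PBS replicate 1, at 36.6 CPM. P2ry12 did not overlap between groups (5.47 to 7.81 CPM in sIVs, 3.33 to 5.18 CPM in PBS), but Ctss did.

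The 10 genes did not share 1 profile across the libraries. Measured as the root mean square difference of centred log2 CPM over the 8 libraries, the closest pairs were Gngt2 with Pde6h at 0.14, Opn1mw with Gnat2 at 0.14 and Cnga3 with Cngb3 at 0.17, while Gnb3 was 0.34 from its nearest member, Gngt2. Among 13778 other protein-coding genes, the mean profile of the 10 was nearest to Smarcd2, Pja1, Ryk, Evl and Gtf2f1, with differences of 0.02 to 0.03 beside a median of 0.27. The mean profile itself was nearly flat apart from 0.32 in sIVs replicate 4. Together the 10 genes took 0.158% ± 0.0294 of all counts in sIVs and 0.141% ± 0.0133 in PBS libraries (SD, n = 4 each), and the opsins 27.8% ± 2.56 of those counts in sIVs and 28.5% ± 6.59 in PBS libraries.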

How the data were processed

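The authors deposited raw counts per gene for 54532 Ensembl genes and FPKM values per gene, with positions and lengths, in 8 retina libraries; poly(A) selection and 150 bp paired-end sequencing are stated per the labels' protocols, and the build mm10 per the submitters' processing notes. The sources used here do not give the aligner, the counter or the use of strand. FPKM equalled counts over listed length and library total up to a constant per library. All 10 genes had the same position in GENCODE M21, which also gave coding lengths (longest coding sequence per gene, 83.6% of tested genes). No column belonged to a sample outside the 2 groups.

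Genes were kept by filterByExpr (17004), scaled by TMM and compared in edgeR 4.0.16 under R 4.3.3 by its quasi-likelihood test. The model held group alone, and p-values were Benjamini-Hochberg adjusted over all tested genes, with a threshold of 0.05. Standard errors are the absolute log2 fold change over the square root of F, and the 95% intervals use them, so both are approximate. Log2 CPM used a prior count of 2. Alternatives used DESeq2 1.42.0, limma 3.58.1, other scalings, FPKM, a replicate block and omitted libraries. The test was checked on simulated counts. Within groups no libraries agreed within counting noise (lowest chi-square per degree of freedom 5.71).

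The members, gene lists and alternatives were chosen with earlier results of these data known. Named were the 10 genes and the 2 genes of smallest p per list (none passed). Also named were the 5 protein-coding genes of at least 1 CPM nearest to the mean profile. Grm6, Gnao1, Best1, Mlana, Ttr, Lrat, Tyrp1 and Pmel were added after their values were seen. Some genes of the lists are not reported here.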

Additional observations from a re-analysis of the deposited data

Results flagged for a closer look

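In 22 sets of 4 libraries (each of the 10 genes and the opsin ratio, in each group), 2 had a library whose gap to its nearest neighbour took more of the whole range than the 95% critical value of Dixon's test, and chance gives about 1 such set in 20. For Cngb3 in the sIVs group, replicate 4 was low, with a gap of 0.846 of the range (12.4 CPM against 15.9 to 16.6 CPM). For Pde6h in the PBS group, replicate 5 was high, with a gap of 0.862 of the range (103 CPM against 86.1 to 88.3 CPM). The high values of Gngt2, Pde6h and Opn1mw in sIVs replicate 4 did not pass this rule.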

How the results depend on the processing

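In the 18 alternatives 0 genes were called (lowest adjusted p 0.104, DESeq2), and the lowest adjusted p of a cone gene was 0.577. The numbers shared between groups were not taken as pairs, since the labels state no pairing. Deviations of same-numbered libraries correlated at 0.60, 0.02, 0.23 and 0.51. Of 4 sIVs libraries, 3 correlated best with the PBS library of their own number, a hint from the data and not the design. Between same-numbered libraries, Pde6c was lower in sIVs in 4 of 4 and Pde6h higher in 4 of 4, while the other cone genes went in both directions. The share of all tested genes with 1 direction in 4 of 4 was not computed, so no result is drawn from these counts. With the replicate block, 0 genes were called and Pde6c stood at -0.27 (unadjusted p = 0.0397 in edgeR, adjusted p = 0.655). It was the 1 cone gene at an unadjusted p under 0.05, beside 588 of 17004 tested genes.

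Cnga3, Gnb3, Arr3 and the opsin ratio changed sign in some alternatives, and the cause was not tested. Cnga3 was 0.031 with limma-voom and quality weights, 0.016 with the coding-length offset, 0.015 without both sIVs replicate 4 and PBS replicate 1, and between -0.069 and 0.064 when 1 library was left out. Gnb3 was -0.053 with limma-voom and ran from -0.12 (without both libraries) to 0.37 (without PBS replicate 3). Arr3 ran from -0.25 (without PBS replicate 5) to 0.017 (without both libraries). The opsin log2 ratio difference was -0.13 without both and between -0.07 and 0.21 with 1 library left out. Opn1sw, Opn1mw, Gnat2, Gngt2, Pde6c, Pde6h and Cngb3 kept their sign in all 18. The median of the 10 genes ran from 0.04 to 0.20 over the alternatives, and that of the shared cascade from -0.34 to 0.21 and that of the transcription factors from -0.06 to 0.17.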
